A study of Aethionema arabicum with 12 samples.

Results

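Transcripts of UDP-sugar glycosyltransferases were followed in imbibed seeds of the crucifer Aethionema arabicum. A gene model belonged to the set when the description of its matching Arabidopsis thaliana gene named a UDP-glycosyltransferase, a UDP-glucosyl transferase or a UDP-glucose transferase. The anthocyanin and flavonol glycosyltransferase loci AT5G54060, AT4G14090 and AT5G17050 were left out. Of 74 matching models, 66 had a read and 50 reached at least 1 CPM (a read count scaled to the library's total) in at least 3 of the 12 libraries, out of 15671 models tested in all. These 50 members are described here. They match 47 distinct Arabidopsis loci, and 36 of them are described in the table only as belonging to the superfamily.

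Plants use UDP-sugar glycosyltransferases of the small-molecule families to move a sugar from a UDP-sugar donor onto a small acceptor. Acceptors include hormones such as abscisic acid, cytokinin, auxin, jasmonate and salicylate, and also flavonols, sinapate, monolignols, sterols and glucosinolate precursors. Attaching the sugar commonly makes the acceptor more soluble, alters its activity and allows storage in the vacuole, and in seeds glucosides are a known store of hormones and phenolics. The superfamily description also takes in enzymes of other kinds, such as starch synthases, galactolipid synthases and mannosyltransferases of protein glycosylation. The donor and acceptors given above do not describe these. Substrates given below are those known for the Arabidopsis gene, and were not measured in this species. No sequence is shown, since neither genome nor protein sequences were used here.

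The 12 libraries fell into 4 groups of 3, and the labels name no mutation or transgene for any of them. CYP light and CYP dark were seeds of the accession from Cyprus, kept under white light (100 µmol m-2 s-1) or in darkness for 23 h. TUR light and TUR dark were seeds of the Turkish accession ES1020 under the same regimes. Light is known to inhibit the germination of CYP seeds but not of TUR seeds, and the design asks how each accession responds to light. Whole seeds that were not germinating were frozen, so embryo, endosperm and seed coat were read together, and fewer cells of a type cannot be told apart from less RNA per cell. The labels do not say whether replicates came from separate plants or seed batches, so the p-values cover the spread between these samples, which may be technical.

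Total counts were 7099578 to 13953792 per library, and 3 counts in a library stood for 0.219 to 0.456 CPM. The first principal component of all tested genes (63.0% of the variance) separated the accessions and the second (19.4%) separated light from darkness. CYP dark replicate 3 stood apart from the other libraries on the third (4.51%). Seed storage protein and oleosin transcripts, a marker of seed reserves, summed to 9342 to 10092 CPM in CYP light, 5939 to 8035 CPM in CYP dark, 3267 to 6074 CPM in TUR light and 2594 to 4372 CPM in TUR dark, over 6 measured models of 8, with 1 model at 0. NCED6, the measured endosperm marker, was at 10.1 to 11.6 CPM in CYP light, 15.3 to 26.0 in CYP dark, 1.75 to 4.35 in TUR light and 10.5 to 12.8 in TUR dark. Seed coat markers summed to 29.8 to 32.8, 24.8 to 35.1, 37.3 to 53.8 and 39.1 to 48.8 CPM in the same order of groups. Green leaf markers summed to 164 to 198, 166 to 175, 183 to 197 and 139 to 142 CPM in that order, with 1 model at 0. The reserve sums and NCED6 were higher in CYP than in TUR in both regimes, although the SESA3 model AA32G01115, of a storage protein, was lower in CYP in both (log2 -1.76 in light, adjusted p = 4.77e-05, and -2.40 in darkness, adjusted p = 4.86e-06, by edgeR). The second SESA3 model, AA32G01116, passed in neither regime (adjusted p = 0.181 in light and 0.0695 in darkness). Seed coat sums were lower in CYP; of their members RHM2 was called lower in both regimes and TTG2 in neither. Light against darkness, NCED6 was lower in both accessions, and TTG2 (18.4 CPM in CYP light and 6.19 in CYP dark, 16.6 CPM in TUR light and 8.32 in TUR dark) and the leaf marker LHB1B1 (log2 3.58 in CYP and 4.11 in TUR) were higher in both. Other markers of these lists did not follow. The leaf marker RCA was called higher in TUR light only (log2 -0.01 in CYP and 0.33 in TUR). LHCA3 was called in neither accession (log2 -0.46 and -0.03). The seed coat marker RHM2 was called lower in CYP light (log2 -0.94) and did not pass in TUR (log2 -0.29). The reserve sums were higher in CYP light than in CYP dark. Their part in the results below was not tested.

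Per length, the set was led by UGT72D1 (AA33G00122), a member of the family that holds the monolignol glucosyltransferases, with no settled substrate of its own. It averaged 117 RPKM (CPM divided by the model's length in kilobases, TMM-scaled and computed from the counts) in CYP light, 35.8 in CYP dark, 57.7 in TUR light and 16.0 in TUR dark. After it came UGT86A1 (25.6 RPKM averaged over the 4 groups), the UGT71B5 model AA621G00004 (25.2) and UGT76E1 (24.1). UGT89C1 model AA114G00008 (20.6), UGT88A1 (18.5), UGT71C3 (18.2) and UGT79B9 (16.3) followed. This order depends on the deposited model lengths, which ran from 603 to 6681 bases among members. The 2 UGT89C1 models were given 1293 and 6660 bases. UGT74F1, the longest, is not in this list, although it averaged 56.4 CPM in CYP light against 31.9 CPM for UGT86A1. In TUR dark it averaged 55.1 CPM against 61.7 CPM. In all, 43 of the 50 members averaged at least 1 RPKM over the groups. The 50 members together took 1101 ± 40.2 CPM in CYP light and 935 ± 26.5 CPM in CYP dark, and 1000.3 ± 27.8 CPM in TUR light and 840 ± 12.1 CPM in TUR dark (SD, n = 3 each). UGT72D1 alone took 20.0 to 20.4% of these reads in CYP light, 6.82 to 7.70% in CYP dark, 10.0 to 11.8% in TUR light and 3.31 to 3.85% in TUR dark. Without it the sums were 879 ± 32.1 CPM in CYP light and 867 ± 21.6 CPM in CYP dark, and 890 ± 17.7 CPM in TUR light and 810 ± 9.56 CPM in TUR dark, so that the CYP light and dark sums then overlapped within their spread.

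**Figure D1:**
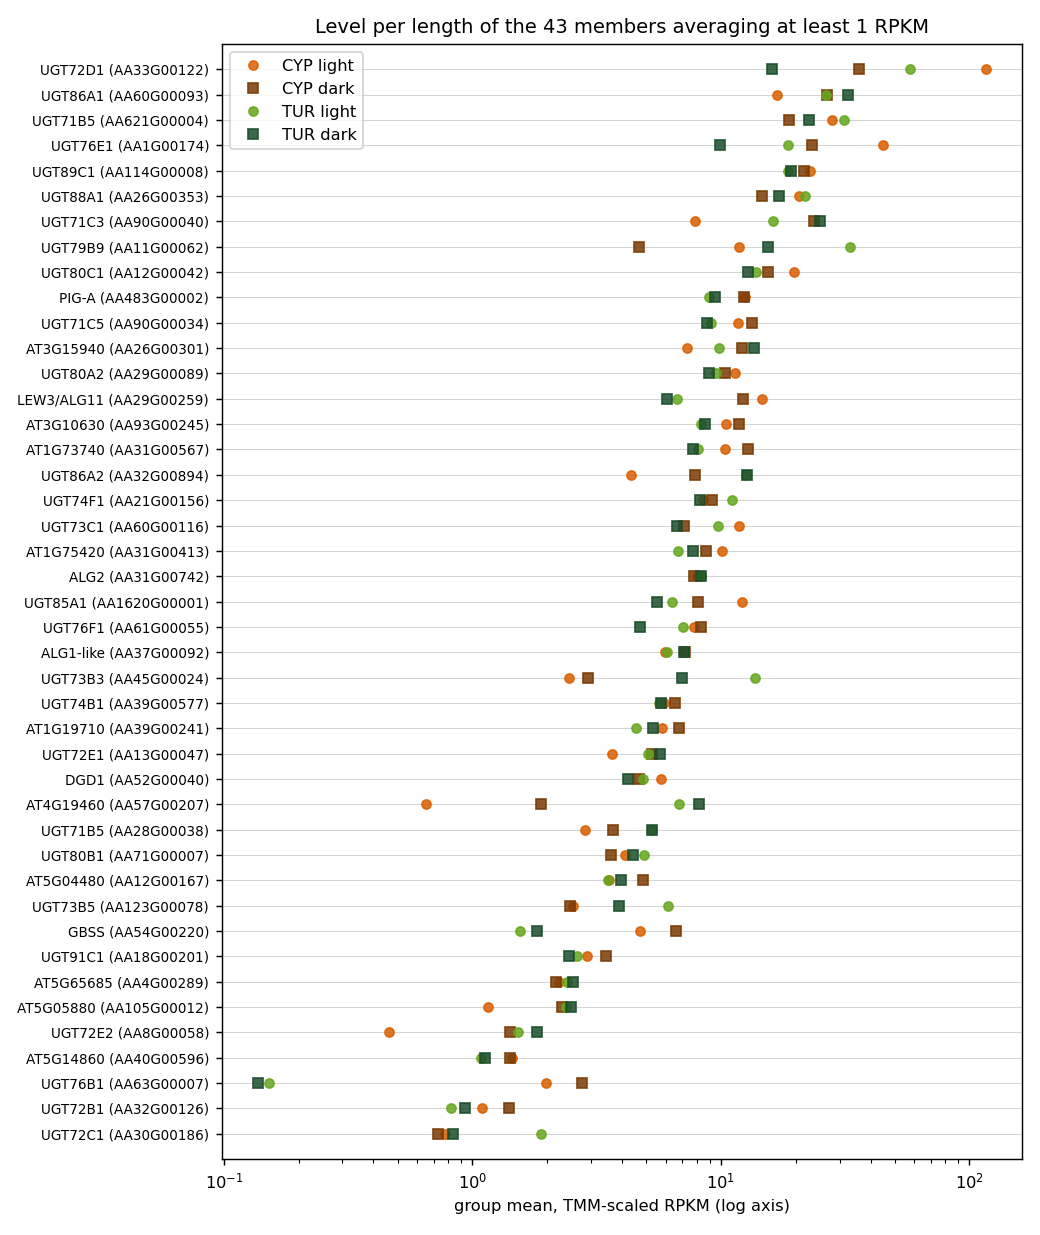
Group means of the 43 members averaging at least 1 RPKM over the 4 groups, in TMM-scaled RPKM on a log axis, with circles for light and squares for darkness. UGT72D1 lies at the top, with 117 RPKM in CYP light and 16.0 RPKM in TUR dark.

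Members differed in how widely they were detected. A level of 1 CPM was reached in all 12 libraries by 39 members and in 4 to 9 libraries by the other 11. The members UGT84B2, the UGT76B1 model AA63G00007 and UGT87A2 sat nearest to the limit, at 1 CPM or more in 4 libraries. In all, 8 members would not have been measured without the light libraries, without the dark ones or without those of a single accession. UGT84A2, the UGT89C1 model AA3G00047, the UGT76B1 model AA63G00008 and UGT87A2 needed the light libraries. UGT76D1, UGT84B2 and the UGT76B1 model AA63G00007 needed the dark ones. AA63G00007 and UGT84B2 needed the CYP libraries, and UGT72C1, UGT76D1, UGT84B2 and UGT87A2 the TUR ones. A difference in the matching comparison was thus built into their selection, and their values in it are given as a description with no test. UGT84B2 (AA46G00199), a glucosyltransferase of the auxin indole-3-acetic acid, had 0.239, 0.428 and 0.877 CPM in CYP light, against 1.30, 0.598 and 1.52 in CYP dark. It had 0.375, 0.374 and 0.302 CPM in TUR light, against 0.538, 1.23 and 1.09 in TUR dark. Its reads were few in every library.

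Under the limit were 24 matching models, of which 8 had no read in any library and 16 had at least 1. The nearest of these, at 1 CPM or more in 2 libraries, were UGT75B2 (AA4G00023) and UGT71C4 (AA90G00035). UGT75B2 had 0.239, 0.0856 and 0.0731 CPM in CYP light and 0.100, 0 and 0 in CYP dark, and 1.12, 0.499 and 2.27 in TUR light and 0.154, 0 and 0.233 in TUR dark. UGT71C4 had 0.716, 1.03 and 0.950 CPM in CYP light and 1.50, 0.957 and 0.912 in CYP dark, and 0.525, 0.125 and 0.529 in TUR light and 0.768, 0.377 and 0.155 in TUR dark. Many of the unmeasured models sat beside relatives: of 25 models lying in 9 runs of near-consecutive model numbers (gaps of at most 6), 8 were measured, against 42 of the 49 models with no such neighbour. Adjacent copies may share reads, and how the authors' counting divided such reads is not stated in the labels or the file.

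Among called glycosyltransferases, rises and falls in light were about equal in number in CYP seeds, and rises were the more numerous in TUR seeds. Calls are differences with an adjusted p under 0.05 by edgeR's quasi-likelihood test. In CYP, 9 of 50 members were higher in light and 10 lower, which is 38% called, against 25.0% of all genes tested (10.6% higher and 14.3% lower). In TUR, 13 were higher and 3 lower, which is 32% called, against 18.4% of all genes (9.17% higher and 9.22% lower). Both shares lay above the background, and no test of that excess was made. The median log2 fold change of light over dark was -0.12 for the members and -0.01 for all genes in CYP, and 0.03 and 0.00 in TUR. Among the 43 members that did not depend on the light or on the dark libraries to be measured, 8 were higher and 10 lower in CYP, and 11 were higher and 3 lower in TUR. A total of 7 members (14%) were higher in light in both accessions, against 5.35% of all genes, and 6 of them are among these 43. A total of 3 (6%) were lower in both, against 5.98% of all genes, and 25 (50%) were called in neither, against 68.1%. No member was called in opposite directions, which was rare among all genes too (0.0191% higher in CYP and lower in TUR, 0.083% the reverse). The TUR count rests in part on TUR light replicate 1, without which 9 members were called (8 higher and 1 lower). The lower count in TUR was 1 without TUR light replicate 1, TUR light replicate 3 or TUR dark replicate 2.

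Among members averaging at least 5 CPM, the largest rise in both accessions was that of UGT72D1. It had 224, 213 and 229 CPM in CYP light, against 70.3, 61.7 and 72.6 CPM in CYP dark. It had 122, 98.5 and 110 CPM in TUR light, against 32.5, 27.3 and 31.8 CPM in TUR dark. All light libraries of an accession lay above all of its dark ones, and every CYP library lay above every TUR library of the same regime. The rise was 3.26-fold in CYP (log2 1.70, SE 0.10, adjusted p = 8.52e-10) and 3.60-fold in TUR (log2 1.85, SE 0.11, adjusted p = 3.94e-10). With the fewer reads behind the deposited RPKM of the TUR libraries, the TUR change was 1.24 on the log2 scale (adjusted p = 7.61e-12).

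UGT79B9 (AA11G00062), of a family that includes flavonoid glycosyltransferases, rose in light and was the more abundant in TUR. It had 18.0, 14.5 and 15.7 CPM in CYP light, against 6.59, 5.38 and 7.14 CPM in CYP dark (log2 1.34, SE 0.18, adjusted p = 1.58e-05). It had 52.3, 34.4 and 47.7 CPM in TUR light, against 22.0, 19.7 and 21.5 CPM in TUR dark (log2 1.10, SE 0.14, adjusted p = 1.43e-05). The light libraries stood clear of the dark ones in both accessions, and even the lowest TUR dark library lay above the highest CYP light library.

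UGT76E1 (AA1G00174), whose Arabidopsis match glucosylates hydroxylated jasmonate, also rose in both accessions. It had 71.0, 60.3 and 62.3 CPM in CYP light, against 36.1, 32.2 and 31.9 CPM in CYP dark, a 1.93-fold rise (log2 0.95, SE 0.15, adjusted p = 9.74e-05). It had 34.9, 18.9 and 26.1 CPM in TUR light, against 14.7, 13.8 and 14.1 CPM in TUR dark, a 1.90-fold rise (log2 0.93, SE 0.16, adjusted p = 0.000405). The groups did not overlap in either accession, although the TUR light libraries were spread.

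Of the flavonoid group, 2 of 4 matching models were measured, and both match UGT89C1, the flavonol 7-O-rhamnosyltransferase. The scarce copy AA3G00047 had to be high in light to be measured, so its light difference is a description. It had 4.69, 2.22 and 4.60 CPM in CYP light, against 1.20, 1.20 and 0.304 CPM in CYP dark. It had 3.45, 4.11 and 3.32 CPM in TUR light, against 0.615, 0.283 and 0.388 CPM in TUR dark. The dark values of TUR lay near the floor of 3 counts per library, so the size of any fold against them is loosely set. The abundant copy AA114G00008 averaged 29.6 ± 1.51 CPM in CYP light and 28.0 ± 2.83 in CYP dark, and 24.0 ± 3.46 in TUR light and 24.8 ± 2.50 in TUR dark (SD, n = 3 each). Its light difference passed in neither accession (log2 0.09 with SE 0.12 in CYP and -0.05 with SE 0.12 in TUR).

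**Figure D2:**
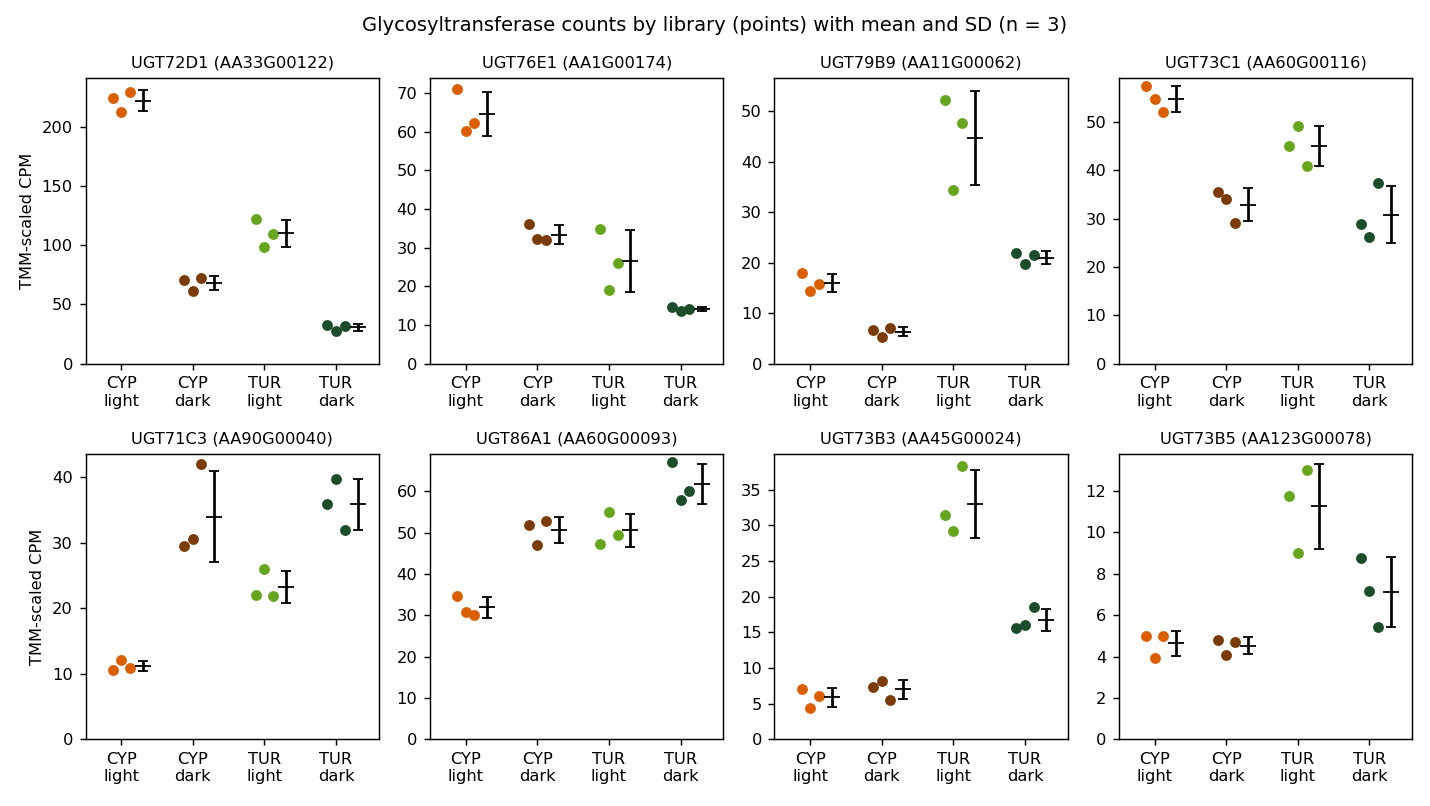
TMM-scaled CPM of 8 members in each of the 12 libraries, with points for libraries and a bar for the mean and SD (n = 3). UGT72D1, UGT76E1, UGT79B9 and UGT73C1 are higher in light in both accessions, UGT71C3 and UGT86A1 are lower, and UGT73B3 and UGT73B5 were called higher in TUR light.

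Both measured cytokinin glucosyltransferases were called higher in CYP light. UGT73C1 (AA60G00116), which can glucosylate the side chain of cytokinins, had 57.4, 54.8 and 52.1 CPM in CYP light, against 35.5, 34.0 and 29.0 CPM in CYP dark (log2 0.73, SE 0.12, adjusted p = 0.000242). It also rose in TUR, with 45.1, 49.2 and 40.9 CPM in light, against 28.8, 26.3 and 37.4 CPM in darkness (log2 0.54, SE 0.12, adjusted p = 0.00458). UGT85A1 (AA1620G00001), which glucosylates trans-zeatin, had 13.8, 6.76 and 10.1 CPM in CYP light, against 6.29, 6.34 and 7.75 CPM in CYP dark. These groups overlapped. Its call (log2 0.60, SE 0.22, adjusted p = 0.0479) was lost under 11 of the alternatives, among them 9 of the 12 that leave out a library, and without CYP light replicate 1 the log2 change was 0.34 with an adjusted p of 0.277.

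The remaining shared rises were small. UGT88A1 (AA26G00353) averaged 30.1 ± 1.43 CPM in CYP light and 21.4 ± 0.626 in CYP dark (log2 0.50, SE 0.10, adjusted p = 0.000963). It averaged 32.1 ± 2.00 CPM in TUR light and 25.2 ± 0.199 in TUR dark (log2 0.36, SE 0.09, adjusted p = 0.0121). The UGT71B5 model AA621G00004 averaged 39.9 ± 0.982 CPM in CYP light and 26.7 ± 5.62 in CYP dark (log2 0.58, SE 0.15, adjusted p = 0.00787), and 44.6 ± 9.12 CPM in TUR light and 32.2 ± 2.40 in TUR dark (log2 0.48, SE 0.14, adjusted p = 0.0254; SD, n = 3 each). In TUR these calls were lost without TUR light replicate 1, where the adjusted p was 0.0756 for UGT88A1 and 0.204 for UGT71B5, and also without TUR light replicate 3 (0.0809 and 0.0949). For UGT71B5 the TUR call was lost as well with limma (0.0539) and without TUR dark replicate 2 (0.0964) or 3 (0.0795). Its CYP call was lost without CYP dark replicate 2 (0.0505).

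UGT71C3 (AA90G00040), whose Arabidopsis match is reported to glucosylate methyl salicylate, showed the clearest fall. It had 10.7, 12.2 and 10.8 CPM in CYP light, against 29.4, 30.5 and 41.9 CPM in CYP dark, and was 3.01-fold lower in light (log2 -1.59, SE 0.14, adjusted p = 1.65e-07). It had 22.0, 26.1 and 21.8 CPM in TUR light, against 35.9, 39.8 and 32.0 CPM in TUR dark, and was 1.55-fold lower in light (log2 -0.63, SE 0.13, adjusted p = 0.00248). All light libraries lay under all dark ones in both accessions.

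UGT86A1 (AA60G00093), an enzyme without an assigned acceptor, averaged 31.9 ± 2.44 CPM in CYP light and 50.6 ± 3.08 in CYP dark (log2 -0.67, SE 0.10, adjusted p = 7.95e-05). It averaged 50.5 ± 3.98 CPM in TUR light and 61.7 ± 4.84 in TUR dark (SD, n = 3 each), a fall (log2 -0.29, SE 0.10, adjusted p = 0.0427) that was lost under 9 alternatives, with adjusted p from 0.0516 to 0.181. These include leaving out CYP light replicate 3, TUR light replicate 1 or 3, or TUR dark replicate 1 or 2. Its relative UGT86A2 (AA32G00894) had 6.05, 8.39 and 8.70 CPM in CYP light, against 18.9, 13.3 and 9.88 CPM in CYP dark (log2 -0.89, SE 0.21, adjusted p = 0.00406). In TUR it averaged 22.4 ± 2.03 CPM in light and 22.6 ± 4.28 CPM in darkness. The lowest CYP dark value was that of replicate 3, the library that stood apart.

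Glucosyltransferases of phenylpropanoids moved in different ways. UGT72E2 (AA8G00058), which glucosylates monolignols, had 0.796, 0.513 and 0.731 CPM in CYP light, against 2.89, 1.67 and 1.67 CPM in CYP dark, and fell (log2 -1.63, SE 0.37, adjusted p = 0.00348). It had 2.92, 2.24 and 1.59 CPM in TUR light and 2.54, 2.45 and 3.02 CPM in TUR dark, with overlapping libraries (log2 -0.25, SE 0.28, adjusted p = 0.596). UGT72E1 (AA13G00047), which acts on coniferyl aldehyde, averaged 13.9 ± 1.23 CPM in CYP light and 20.2 ± 1.92 in CYP dark (log2 -0.54, SE 0.13, adjusted p = 0.00410), and 19.4 ± 1.28 CPM in TUR light and 21.7 ± 2.67 in TUR dark (adjusted p = 0.386).

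UGT84A2 (AA26G00801), the sinapate glucosyltransferase that makes sinapoylglucose, was scarce and reached 1 CPM in light libraries only, so its light values are a description. It had 1.03, 1.03 and 1.24 CPM in CYP light, against 0.898, 0.717 and 0.608 CPM in CYP dark. It had 2.25, 1.50 and 1.96 CPM in TUR light, against 0.538, 0.377 and 0.465 CPM in TUR dark. UGT72B1 (AA32G00126), which glucosylates monolignols and chlorinated phenols, passed neither light test.

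The stress-induced members UGT73B3 and UGT73B5 were called higher in TUR light. UGT73B3 (AA45G00024), a stress-induced enzyme needed for resistance to bacteria in Arabidopsis, had 7.08, 4.45 and 6.14 CPM in CYP light, against 7.39, 8.13 and 5.47 CPM in CYP dark, where the libraries overlapped (log2 -0.26, SE 0.20, adjusted p = 0.368). It had 31.5, 29.2 and 38.3 CPM in TUR light, against 15.6, 16.0 and 18.5 CPM in TUR dark (log2 0.98, SE 0.15, adjusted p = 0.000104). UGT73B5 (AA123G00078), its close relative, averaged 4.64 ± 0.609 CPM in CYP light and 4.52 ± 0.397 CPM in CYP dark (SD, n = 3 each). It had 11.8, 8.97 and 13.0 CPM in TUR light, against 8.76, 7.16 and 5.43 CPM in TUR dark (log2 0.68, SE 0.18, adjusted p = 0.0143). The UGT73B5 call was lost without TUR light replicate 1 (adjusted p = 0.0664), TUR light replicate 3 (0.108) or TUR dark replicate 3 (0.0807). Its light response did not pass the edgeR test of a difference between accessions (difference -0.64, SE 0.29, adjusted p = 0.342).

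Of the salicylate and benzoate group, 4 of 8 matching models were measured, and 1 was called in a light comparison. UGT71C3, described above, was not on that list. UGT74F1 (AA21G00156), which makes salicylic acid glucoside, averaged 56.4 ± 0.272 CPM in CYP light and 61.5 ± 5.50 CPM in CYP dark. It had 74.4, 84.4 and 64.0 CPM in TUR light, against 50.0, 48.3 and 67.1 CPM in TUR dark, with overlapping libraries (log2 0.42, SE 0.12, adjusted p = 0.0228). That call was lost with limma and without TUR light replicate 1 or 2 or TUR dark replicate 1 or 2, with adjusted p from 0.0557 to 0.137. UGT76D1 (AA32G01026), a glucosyltransferase of dihydroxybenzoic and salicylic acid, had 0.796, 0.342 and 0.219 CPM in CYP light and 1.10, 1.67 and 0.304 CPM in CYP dark. It had 0.749, 1.37 and 1.28 CPM in TUR light and 2.77, 1.04 and 1.78 CPM in TUR dark, and needed the dark libraries to be measured.

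The light differences of UGT71C5 and UGT74B1 passed in neither accession. UGT71C5 (AA90G00034), which forms the glucose ester of abscisic acid, averaged 29.2 ± 1.56 CPM in CYP light and 33.2 ± 3.01 CPM in CYP dark (log2 -0.18, SE 0.12, adjusted p = 0.304). It averaged 22.8 ± 3.84 CPM in TUR light and 21.9 ± 2.28 CPM in TUR dark (log2 0.07, SE 0.13, adjusted p = 0.758). UGT74B1 (AA39G00577), which adds glucose in the core pathway of glucosinolates, averaged 24.5 ± 2.07 CPM in CYP light and 27.1 ± 2.69 CPM in CYP dark, and 23.4 ± 1.87 CPM in TUR light and 23.7 ± 1.02 CPM in TUR dark (SD, n = 3 each). Both enzymes were among the steadier members of the set, with log2 light changes of at most 0.18 in size.

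UGT76F1 (AA61G00055), which glucosylates the auxin precursor indole-3-pyruvic acid, was called in TUR. It averaged 16.0 ± 0.793 CPM in CYP light and 17.1 ± 1.52 CPM in CYP dark (log2 -0.11, SE 0.13, adjusted p = 0.574). It had 15.1, 13.5 and 14.8 CPM in TUR light, against 11.1, 9.33 and 8.68 CPM in TUR dark, with no overlap (log2 0.58, SE 0.13, adjusted p = 0.00421). UGT72C1 (AA30G00186), of the monolignol glucosyltransferase family, had 1.59, 0.599 and 0.950 CPM in CYP light and 1.20, 0.837 and 0.912 CPM in CYP dark, with no separation. It had 2.77, 2.62 and 2.27 CPM in TUR light, against 1.23, 1.23 and 0.930 CPM in TUR dark (log2 1.17, SE 0.31, adjusted p = 0.0139). Its TUR call was lost without TUR light replicate 1 (adjusted p = 0.0648) or TUR dark replicate 3 (0.0561). AT5G05880 (AA105G00012), for which no acceptor is given, had 2.94, 3.08 and 2.63 CPM in CYP light, against 6.19, 6.22 and 4.71 CPM in CYP dark, 2.0-fold lower in light (SE 0.22 on the log2 scale, adjusted p = 0.00242), and averaged 5.93 ± 1.36 CPM in TUR light and 6.22 ± 0.909 CPM in TUR dark.

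The 3 measured sterol-type models, UGT80A2, UGT80B1 and UGT80C1, stayed within a narrow range, with log2 light changes of 0.14 to 0.34 in CYP and 0.09 to 0.14 in TUR. UGT80C1 (AA12G00042) was called in CYP, with 79.1, 75.0 and 78.5 CPM in light, against 67.0, 66.1 and 49.5 CPM in darkness (log2 0.34, SE 0.11, adjusted p = 0.0280). The low dark value was that of CYP dark replicate 3, and without it the log2 change was 0.22 with an adjusted p of 0.108. The call was also lost without CYP light replicate 1 (0.0760) or 3 (0.0719), and with the compared groups alone (0.0547).

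Of 15 measured members outside the small-molecule families (of 16 matching models), 4 were lower and none higher in CYP light, where 14.3% of all genes were lower and 10.6% higher, and 1 was lower and none higher in TUR light (9.22% and 9.17% of all genes). LEW3/ALG11 was called higher in CYP light with limma (log2 0.27, adjusted p = 0.0294) and with a filter of 5 CPM (log2 0.27, adjusted p = 0.0482). Of 32 measured small-molecule members other than the sterol type (of 55 matching), 8 were higher and 6 lower in CYP, and 13 were higher and 2 lower in TUR, UGT84A2 and AA3G00047 included. The groups were not tested against each other. This division follows what is known of the Arabidopsis genes, and it was completed after the member list had been seen. AT4G19460 (AA57G00207), with no assigned role, had 0.477, 0.941 and 0.877 CPM in CYP light, against 2.59, 1.91 and 2.13 CPM in CYP dark (log2 -1.53, SE 0.30, adjusted p = 0.000947). It had 8.17, 8.48 and 7.18 CPM in TUR light and 10.2, 9.61 and 9.07 CPM in TUR dark (log2 -0.29, SE 0.16, adjusted p = 0.245).

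The granule-bound starch synthase (AA54G00220), which makes amylose, averaged 14.3 ± 1.16 CPM in CYP light and 20.0 ± 1.51 CPM in CYP dark (log2 -0.49, SE 0.14, adjusted p = 0.0137). The call was lost without CYP light replicate 2 (0.0657) or CYP dark replicate 1 (0.0569). AT3G15940 (AA26G00301) had 20.1, 19.0 and 20.6 CPM in CYP light, against 31.3, 32.2 and 35.6 CPM in CYP dark (log2 -0.72, SE 0.13, adjusted p = 0.000535). It had 22.6, 33.7 and 24.4 CPM in TUR light, against 37.7, 40.4 and 33.4 CPM in TUR dark (log2 -0.48, SE 0.13, adjusted p = 0.0125). That TUR call was lost without TUR light replicate 1 (0.0621) or 3 (0.0531) or TUR dark replicate 2 (0.0679). AT5G04480 (AA12G00167) averaged 21.0 ± 3.69 CPM in CYP light and 29.0 ± 3.38 CPM in CYP dark (log2 -0.45, SE 0.13, adjusted p = 0.0152), a call lost without CYP light replicate 2 (0.0862). The 4 members of protein and GPI-anchor glycosylation, LEW3/ALG11, ALG2, an ALG1-like gene and PIG-A, passed neither light test, with log2 changes of -0.25 to 0.26 in CYP and -0.23 to 0.13 in TUR. DGD1, the galactolipid synthase of plastid membranes, also passed neither (adjusted p = 0.122 in CYP and 0.325 in TUR). The members not named in these light results, such as the second UGT71B5 model AA28G00038 (adjusted p = 0.425 in CYP and 0.994 in TUR), UGT91C1 (0.427 and 0.682) and AT5G14860 (0.920 and 0.940), were called in neither accession.

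A difference between the accessions in the light response was called for 2 of 50 members, UGT73B3 and UGT71C3, which is 4% against 2.24% of all genes tested. Both were lower in CYP relative to TUR (1.83% of all genes had this direction, and 0.408% the opposite one). The response of UGT73B3 was lower in CYP by 1.24 on the log2 scale (difference -1.24, SE 0.25, adjusted p = 0.0101), with a rise in TUR and overlapping libraries in CYP. That of UGT71C3 was lower by 0.96 (difference -0.96, SE 0.19, adjusted p = 0.0121), with a fall in both accessions that was larger in CYP. Without CYP light replicate 1 UGT71C3 no longer passed (difference -0.89, adjusted p = 0.0567). Without CYP dark replicate 3 the count was 4, the additions being UGT86A2 (difference -1.04, adjusted p = 0.0149) and UGT76F1 (-0.73, adjusted p = 0.0374). The shared responders UGT72D1 (difference -0.14, SE 0.15, adjusted p = 0.731), UGT76E1 (0.02, SE 0.22, adjusted p = 0.985) and UGT79B9 (0.24, SE 0.22, adjusted p = 0.703) did not pass, and these SEs leave room for modest differences. With the fewer reads behind the deposited RPKM, their TUR light changes were smaller, at 1.24 (UGT72D1), 0.65 (UGT76E1) and 0.72 (UGT79B9) on the log2 scale. No difference between the accessions was tested with those reads.

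**Figure D3:**
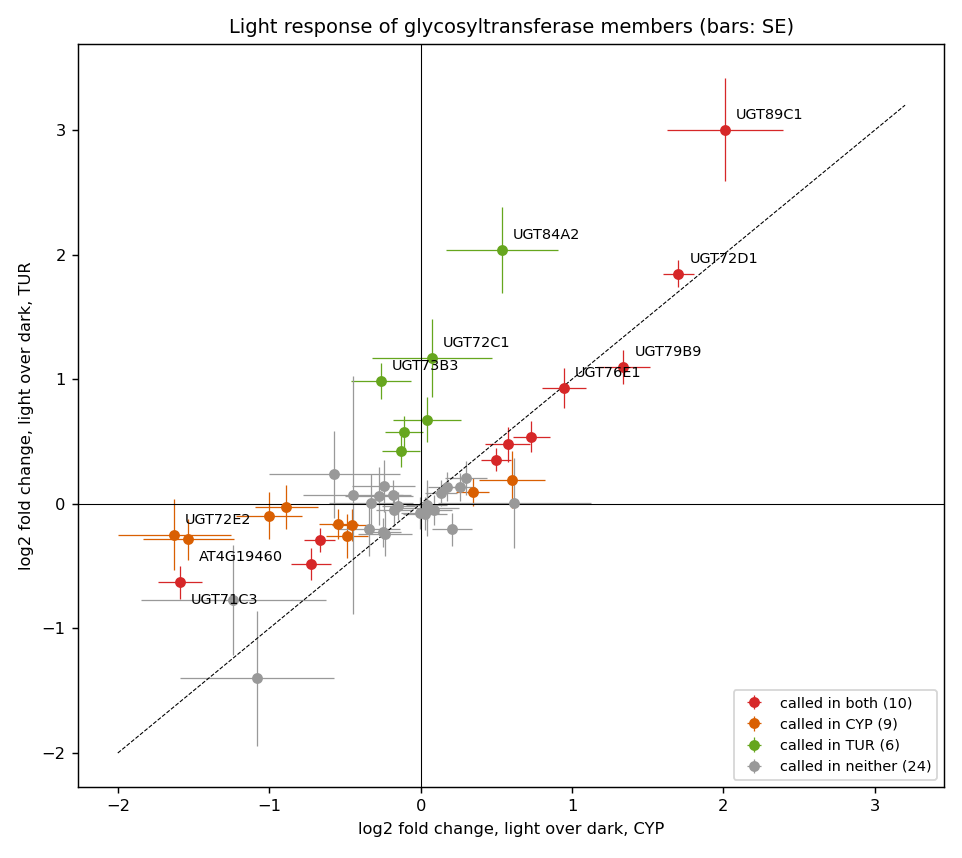
Log2 fold change of light over dark in CYP (x axis) and in TUR (y axis) for 49 members, with bars for the SE and a dashed line of equal response. UGT87A2 is not drawn, since it had no read in CYP dark. Some drawn members needed the light or the dark libraries to be measured, so their points and call colours are a description. These are UGT84A2, UGT76D1, UGT84B2, the UGT89C1 model AA3G00047 and the UGT76B1 models AA63G00007 and AA63G00008. UGT72D1, UGT76E1 and UGT79B9 lie near the line, while UGT73B3 (-0.26 in CYP and 0.98 in TUR) and UGT71C3 (-1.59 in CYP and -0.63 in TUR) lie off it.

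Between the accessions the glycosyltransferases differed in shares close to those of all genes. These comparisons rest on the deposited counts, since the deposited RPKM was made from fewer reads in TUR libraries alone. In light, 13 of 50 members were higher in CYP than in TUR and 17 lower, which is 60% called against 52.7% of all genes (24.9% higher and 27.8% lower). In darkness 11 were higher and 8 lower, which is 38% called against 44.5% of all genes (22.4% higher and 22.1% lower). With limma on log2(RPKM + 1) the darkness split was 8 higher and 9 lower, and without TUR dark replicate 1 the lower count was 5. The median log2 difference of CYP over TUR was 0.00 for members and -0.02 for all genes in light, and 0.15 and 0.00 in darkness. A total of 8 members were higher in CYP in both regimes (17.7% of all genes), 7 were lower in both (18.6%), and 16 were called in neither (39.2%). These tallies include members measured through a single accession, among them AA63G00007 and UGT87A2. Of the 45 members that were not, 12 were higher and 15 lower in CYP in light, 10 were higher and 7 lower in darkness, and 7 were higher and 6 lower in both regimes.

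Of the members higher in CYP, the granule-bound starch synthase had the largest difference among those averaging 5 CPM or more. It had 15.2, 13.0 and 14.8 CPM in CYP light, against 3.90, 5.61 and 4.61 CPM in TUR light (log2 1.63, SE 0.16, adjusted p = 9.76e-08), and 21.4, 20.3 and 18.4 CPM in CYP dark, against 4.69, 5.94 and 5.97 CPM in TUR dark (log2 1.86, SE 0.15, adjusted p = 1.86e-08). LEW3/ALG11 (AA29G00259), a mannosyltransferase of N-glycan assembly, averaged 32.1 ± 1.87 CPM in CYP light and 14.6 ± 1.10 CPM in TUR light (log2 1.13, SE 0.10, adjusted p = 4.62e-08), and 26.8 ± 1.12 CPM in CYP dark and 13.4 ± 0.288 CPM in TUR dark (log2 1.01, SE 0.11, adjusted p = 5.11e-07). Neither gene overlapped between accessions in either regime.

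UGT72D1 and UGT76E1, higher in light in both accessions, were also higher in CYP than in TUR. For UGT72D1 the log2 difference was 1.01 in light (SE 0.10, adjusted p = 1.34e-07) and 1.16 in darkness (SE 0.11, adjusted p = 9.78e-08). For UGT76E1 it was 1.26 in light (SE 0.15, adjusted p = 1.01e-06) and 1.24 in darkness (SE 0.16, adjusted p = 5.63e-06). UGT71C5 of abscisic acid was modestly higher in CYP, by 0.35 in light (SE 0.12, adjusted p = 0.0251) and 0.60 in darkness (SE 0.13, adjusted p = 0.000819). The light call of UGT71C5 was lost without CYP light replicate 3 (0.0824) or TUR light replicate 2 (0.0959), and with limma (0.0585).

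Other named members were called higher in CYP in a single regime, and none of them passed the test of the difference between light responses (adjusted p = 0.631 for UGT85A1, 0.338 for AT1G75420, 0.0535 for UGT76F1 and 0.713 for AT1G73740). UGT85A1 (log2 0.94, SE 0.21, adjusted p = 0.00115) and AT1G75420 (log2 0.60, SE 0.13, adjusted p = 0.000850) were called higher in CYP in light. UGT76F1 (log2 0.82, SE 0.13, adjusted p = 5.92e-05) and AT1G73740 (log2 0.71, SE 0.23, adjusted p = 0.0190) were called higher in CYP in darkness. AT1G73740 had 16.5, 13.9 and 30.5 CPM in CYP dark, against 14.5, 12.7 and 9.38 CPM in TUR dark, and the high value was that of CYP dark replicate 3. Without that library the log2 difference was 0.32 with an adjusted p of 0.160, and without TUR dark replicate 3 the adjusted p was 0.0930. The AT1G73740 call was also lost with limma (0.0568) and with the compared groups alone (0.0537).

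Among members averaging at least 5 CPM in the higher group, AT4G19460 and UGT73B3 had the largest differences below 0 in light. AT4G19460 was 10.2-fold lower in CYP than in TUR in light (log2 -3.35, SE 0.23, adjusted p = 1.47e-09) and 4.29-fold lower in darkness (log2 -2.10, SE 0.21, adjusted p = 1.84e-07). UGT73B3 was 5.59-fold lower in light (log2 -2.48, SE 0.16, adjusted p = 7.27e-10) and 2.36-fold lower in darkness (log2 -1.24, SE 0.18, adjusted p = 1.71e-05). Its relative UGT73B5 was 2.44-fold lower in light (log2 -1.29, SE 0.19, adjusted p = 1.81e-05) and 1.57-fold lower in darkness (log2 -0.65, SE 0.21, adjusted p = 0.0191). The darkness call of UGT73B5 was lost without CYP dark replicate 2 (0.0700) or TUR dark replicate 1 (0.111).

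UGT79B9 was 2.81-fold lower in CYP in light (log2 -1.49, SE 0.14, adjusted p = 6.89e-08) and 3.32-fold lower in darkness (log2 -1.73, SE 0.17, adjusted p = 2.25e-07). UGT86A2 was lower by 1.53 on the log2 scale in light (log2 -1.53, SE 0.20, adjusted p = 3.31e-06) and by 0.66 in darkness (log2 -0.66, SE 0.19, adjusted p = 0.00814), where the call was lost without TUR dark replicate 3 (0.0501). UGT86A1 was lower in CYP in light (log2 -0.66, SE 0.10, adjusted p = 2.15e-05) and in darkness (log2 -0.29, SE 0.10, adjusted p = 0.0242). Its darkness call was lost under 3 alternatives, with adjusted p from 0.0519 to 0.111. UGT71C3 was lower in CYP in light (log2 -1.05, SE 0.14, adjusted p = 7.44e-06) and did not pass in darkness (log2 -0.09, SE 0.13, adjusted p = 0.611). UGT72E2, at a low level, was likewise lower in CYP in light (log2 -1.70, SE 0.35, adjusted p = 0.000531).

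**Figure D4:**
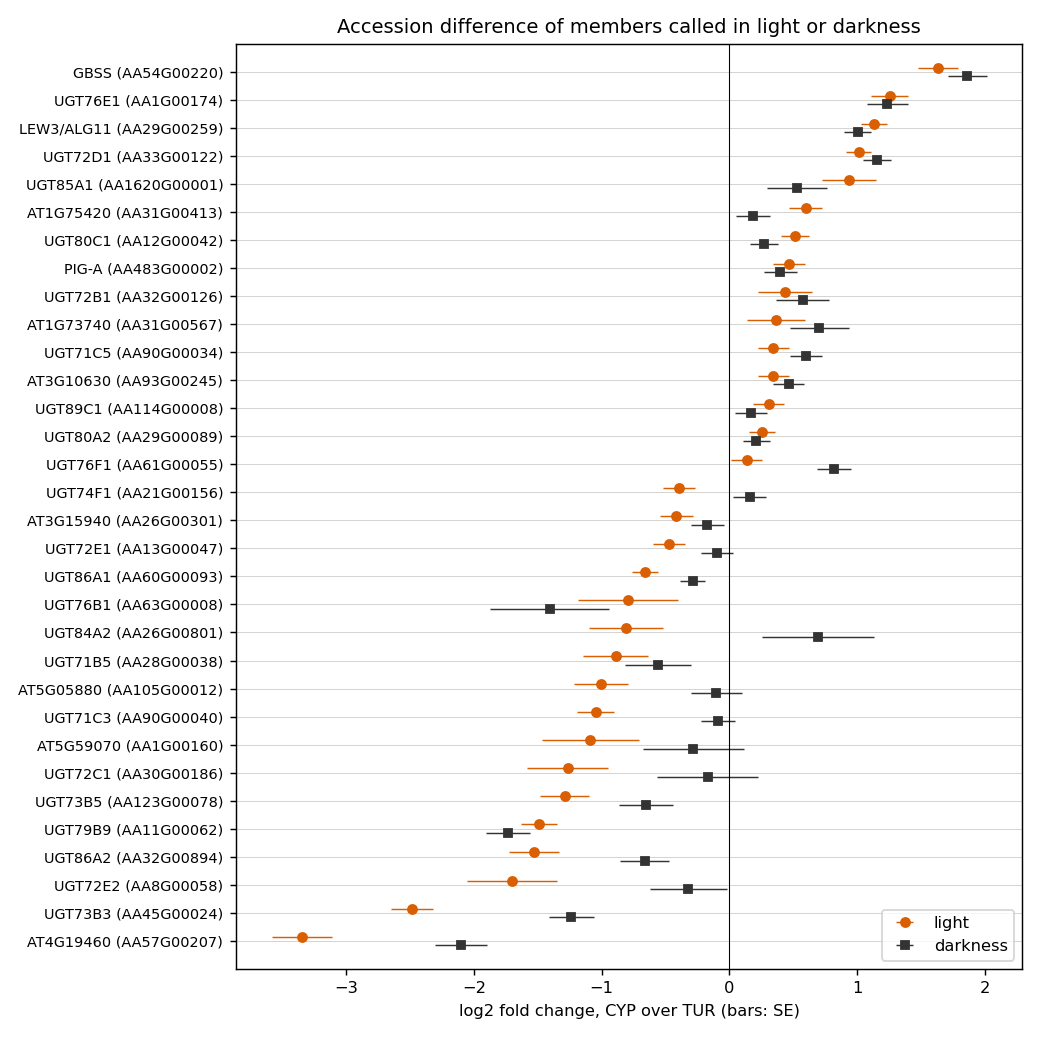
Log2 fold change of CYP over TUR in light (circles) and in darkness (squares), with bars for the SE, for 32 of the 34 members called in either regime, ordered by the value in light. UGT87A2 and the UGT76B1 model AA63G00007 are not drawn because of their few reads. UGT72C1, which needed the TUR libraries to be measured, is drawn as a description. The granule-bound starch synthase heads the drawn list (1.63 in light), and UGT73B3 (-2.48) and AT4G19460 (-3.35) stand at its foot.

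A pair of low-count members had reads almost wholly in a single accession. UGT87A2 reached 1 CPM mainly in TUR light and the UGT76B1 model AA63G00007 mainly in CYP dark, without which neither would have been measured, so their direction is partly set by the filter and is given as a description with no test. UGT87A2 (AA8G00276), known in Arabidopsis for a role in flowering time, had 0.159, 0.0856 and 0.0731 CPM in CYP light and no read in CYP dark. It had 1.50, 1.12 and 0.982 CPM in TUR light, and 0.538, 0.471 and 1.09 CPM in TUR dark. With 0 reads in CYP dark and 26 in TUR dark, TUR dark was at least 5.92-fold higher, against a floor of 3 counts over the group. The UGT76B1 model AA63G00007, matched to a glucosyltransferase of salicylic and isoleucic acid, had 0.955, 0.941 and 1.68 CPM in CYP light, against 0.0749, 0.125 and 0.0755 CPM in TUR light. It had 1.60, 1.55 and 1.82 CPM in CYP dark, against 0.0768, 0.0942 and 0.0775 CPM in TUR dark. From 46 reads in CYP light and 3 in TUR light the ratio was 14.0, and from 41 in CYP dark and 3 in TUR dark it was 20.0. Each ratio rests on 3 TUR reads, so its size is loosely set.

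The next model, AA63G00008, matches the same UGT76B1 locus and leaned the other way. It had 1.03, 1.20 and 1.10 CPM in CYP light and 2.02, 1.12 and 2.42 CPM in TUR light. It had 0.798, 0.957 and 0.304 CPM in CYP dark and 2.61, 0.848 and 2.17 CPM in TUR dark (log2 -1.41, SE 0.47, adjusted p = 0.0198), with overlap in both regimes. The darkness call was lost without CYP dark replicate 3 (0.0604) or TUR dark replicate 1 (0.0956) or 3 (0.0553), and with limma (0.0514). As neighbours matched to a single locus, these copies may trade reads, and their values are uncertain for that reason.

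Genes that make the sugar donors were called in light in both directions. A list of 25 Arabidopsis loci for UDP-sugar supply had models for 21, and all 25 models were measured. In CYP, 4 were higher in light and 9 lower (median log2 change 0.00), beside 10.6% and 14.3% of all genes. In TUR 2 were higher and 6 lower (median -0.15), beside 9.17% and 9.22% of all genes. The arms that lead to UDP-glucuronate, UDP-xylose and UDP-rhamnose (UGD, UXS, RHM and NRS/ER) hold 16 of the 25 models. Of these 16, 9 were lower and 1 higher in CYP light, and 6 were lower and none higher in TUR light. The arms were set apart after the results of the list were known, so this count is a description with no test. The higher one was the UDP-xylose synthase model UXS3 AA97G00019 (log2 0.36, SE 0.11, adjusted p = 0.0178). The UDP-glucose dehydrogenase UGD3 (AA10G00399) averaged 14.1 ± 1.74 CPM in CYP light and 46.0 ± 7.96 in CYP dark (log2 -1.70, SE 0.15, adjusted p = 1.14e-07), and 40.8 ± 6.73 CPM in TUR light and 76.3 ± 8.40 in TUR dark (log2 -0.91, SE 0.13, adjusted p = 8.42e-05). The rhamnose synthase RHM3 (AA26G00194) averaged 23.1 ± 1.03 CPM in CYP light and 52.8 ± 6.29 in CYP dark (log2 -1.19, SE 0.12, adjusted p = 7.86e-07), and 50.5 ± 8.73 CPM in TUR light and 71.2 ± 2.43 in TUR dark (log2 -0.50, SE 0.11, adjusted p = 0.00435; SD, n = 3 each).

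These supply genes were also the 2 of 25 whose light response was called different between accessions (2.24% of all genes, 1.83% with this direction), UGD3 at -0.78 (SE 0.20, adjusted p = 0.0447) and RHM3 at -0.68 (SE 0.17, adjusted p = 0.0365). That count was 1 with RLE size factors, with a filter of 5 CPM or with the replicate block, and 0 with limma on log2(RPKM + 1). RHM2 (AA15G00120), which also serves as a seed coat marker for its part in mucilage, averaged 13.1 ± 0.324 CPM in CYP light and 24.8 ± 4.74 CPM in CYP dark (log2 -0.94, SE 0.17, adjusted p = 0.000628). It averaged 29.8 ± 7.37 CPM in TUR light and 36.1 ± 4.87 CPM in TUR dark, where the difference did not pass (log2 -0.29, SE 0.16, adjusted p = 0.222; SD, n = 3 each). In TUR the largest rise was that of the sucrose synthase SUS1 (AA8G00183), with 5.76 ± 1.27 CPM in light and 2.41 ± 0.284 CPM in darkness (log2 1.28, SE 0.23, adjusted p = 0.000746). In CYP the rises were led by the UDP-glucose epimerase UGE5 (log2 0.61, SE 0.15, adjusted p = 0.00710) and the sucrose synthase SUS3 (log2 0.54, SE 0.10, adjusted p = 0.000356), followed by UGE1 (log2 0.46, SE 0.12, adjusted p = 0.00735). Between accessions, 5 supply models were higher and 12 lower in CYP in light, and 6 were higher and 9 lower in darkness, beside 24.9% and 27.8% of all genes in light and 22.4% and 22.1% in darkness.

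**Figure D5:**
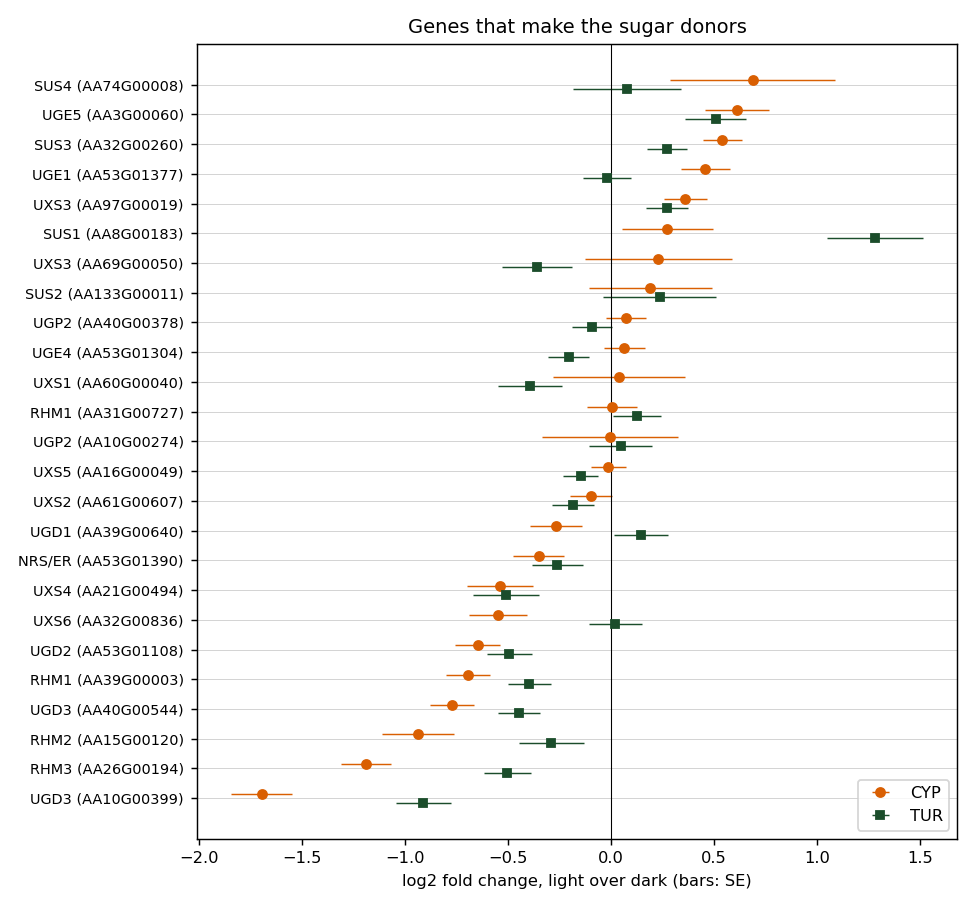
Log2 fold change of light over dark in CYP (circles) and in TUR (squares), with bars for the SE, for the 25 measured models that make the sugar donors, ordered by the value in CYP. UGD3 (AA10G00399) and RHM3 lie at the foot, with falls in both accessions.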

How the data were processed

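Poly(A) RNA of 12 seed libraries (4 groups of 3) was sequenced. Per the file headers, the authors gave raw counts of reads per gene model beside RPKM values for every library. The deposited counts were used throughout. The RPKM of the text was computed from the counts. Deposited RPKM of CYP libraries followed from counts, model length and library total within 1% for every model with reads. That of TUR libraries did so for 0.357 to 0.474% of models: its steps gave whole reads for 100% of values, never above the count, which summed to 29.8 to 38.4% of the counts. The labels do not say how these reads were chosen. HTSeq 0.6.1, Bowtie2 2.2.3, Trimmomatic, bcl2fastq 2.17.1 and the TAIR10 build are listed, without their roles, in the submitters' processing notes. Neither the A. arabicum genome release nor the use of strand in counting is given there.

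Models with at least 1 CPM in at least 3 libraries were tested with edgeR 4.0.16 (R 4.3.3): TMM scaling, 4 group means fitted to all 12 libraries, the quasi-likelihood test, and Benjamini-Hochberg adjustment over all 15671 genes in each of 5 comparisons. Levels are TMM-scaled CPM. The SE of a log2 change was worked back from the test, as the size of the change divided by the square root of its F statistic. The fit was tested on simulated counts. Alternatives were RLE size factors, DESeq2 1.42.0, no filter, a filter of 5 CPM, the compared groups alone, limma 3.58.1 on log2(RPKM + 1), a replicate block and each library left out. An edgeR fit of the TUR groups alone to the reads behind their deposited RPKM was added after seeing the data.

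The members and lists were chosen with earlier results of these data known. Named in the text are up to 8 called members in each direction per light comparison, up to 6 per other comparison, each averaging at least 5 CPM in the higher group, the 8 highest by RPKM, the members with a known role, and up to 3 supply genes in each direction per light comparison. Values in every library are given for up to 12 members with the largest light changes, and for others chosen after their values were seen. Names of 8 members, among them UGT72D1, UGT79B9 and UGT86A1, come from general knowledge of the Arabidopsis locus.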

Additional observations from a re-analysis of the deposited data

Results flagged for a closer look

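A pair of members stood out because their light response differed between the accessions by a test of the difference itself. The response of UGT73B3 (AA45G00024), a stress-induced glucosyltransferase, was lower in CYP than in TUR (difference of log2 changes -1.24, SE 0.25, adjusted p = 0.0101 by edgeR). That of UGT71C3 (AA90G00040), tied to methyl salicylate, was also lower in CYP (difference -0.96, SE 0.19, adjusted p = 0.0121). UGT73B3 kept its call under every alternative that was run, whereas UGT71C3 lost it without CYP light replicate 1 (-0.89, adjusted p = 0.0567).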

How the results depend on the processing

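No called member changed sign under any alternative. Calls that held wherever their member was tested were 14 of 19 in CYP light and 9 of 16 in TUR light. The count was 1 of 2 for the response difference, 21 of 30 for CYP against TUR in light and 12 of 19 in darkness. The filter of 5 CPM tested only 39 of the 50 members. Members it left out, among them UGT72E2, UGT84A2 and AA3G00047, count as holding if no other alternative lost their call. The light values of UGT84A2 and AA3G00047 remain a description. The accession counts that held include AA63G00007 and UGT87A2 in both regimes, and UGT72C1 in light. These were measured only through a single accession, so their accession values remain a description as well. Leaving out single libraries gave 17 to 19 members in CYP light (7 to 9 higher, 8 to 11 lower) and 9 to 16 in TUR light (8 to 13 higher, 1 to 3 lower). It gave 1 to 4 for the difference (0 higher, 1 to 4 lower), 25 to 33 between accessions in light (9 to 15 higher, 14 to 18 lower) and 15 to 21 in darkness (9 to 13 higher, 5 to 9 lower). For the supply genes the ranges were 11 to 13, 6 to 11, 0 to 2, 15 to 19 and 13 to 15 in the same order.

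With the reads behind the deposited RPKM, an alternative chosen after seeing the data, TUR light had 16 members called (13 higher, 3 lower) and 10 supply genes; UGT86A1 lost its call (adjusted p = 0.0522), UGT84B2, measured only through dark libraries, entered the count, and the change of UGT72D1 was 1.24 on the log2 scale. DESeq2 called 3 members for the difference, adding UGT76F1 (adjusted p = 0.0468). The supply genes with a called difference (2) were 1 with RLE size factors, with at least 5 CPM in 3 libraries and with the replicate block, and 0 with limma on log2(RPKM + 1). Limma called 8 members higher and 9 lower in CYP in darkness (47.1% higher, against 57.9% in the edgeR fit). Same-numbered libraries deviated from their group means with correlations of -0.353 to 0.182, so the numbers were not taken to pair the samples. With the replicate block, 19 members were called in CYP, 15 in TUR, 2 for the difference, 30 between accessions in light and 19 in darkness, and 12, 8, 1, 17 and 14 supply genes. Depth limits members near 1 CPM, where 3 counts stand for 0.219 to 0.456 CPM.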
